A study of Mus musculus with 6 samples.

Results

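The genes described here are Pyy, Mgll and Cdc42ep3, 3 of the 16158 genes measured in single cells of mouse skin. They were picked because their mean levels in keratinocytes had been lower in skin with antigen than in skin without it, so those differences are given as a description and carry no test. The 6 mice belonged to the NINJA strain, which carries an inducible neoantigen, were 6 to 12 weeks old, and all had a skin area treated with 4-OH-Tam, the active metabolite of tamoxifen. Per the labels, 2 mice were NO_AG (antigen off), 2 were AG (antigen on) and 2 were AG_CPI (antigen on with CPI, which the labels do not spell out). The labels also say that skin disease and P14 CD8 T cells (T cells with a transgenic receptor) had been checked in each mouse before sequencing. They name no Cre driver, antigen, sex or batch. With 2 mice in a group, the spread between mice rests on 1 difference.

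Pyy encodes peptide YY, a secreted hormone of the neuropeptide Y family that is known mainly from endocrine cells of the gut and pancreas. Mgll encodes monoacylglycerol lipase, which splits monoacylglycerols into glycerol and free fatty acids, ends the signal of the endocannabinoid arachidonoylglycerol, and completes the breakdown of stored triglycerides. Cdc42ep3 encodes a Borg protein that binds the GTPase Cdc42 and acts on septins and actin. In the epidermis, keratinocytes divide in the basal layer, move up, and as suprabasal cells switch on the keratins Krt1 and Krt10, while the hair follicle and its sebaceous gland hold further keratinocyte types.

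In mouse genome mm10 (GENCODE M21), Pyy lies at chr11:102106676-102107832 on the minus strand, Mgll at chr6:88724412-88828360 on the plus strand, and Cdc42ep3 at chr17:79333727-79355091 on the minus strand. All 3 symbols matched the RefSeq promoters of build GRCm38.p6. The 250 bases before each gene's start are shown because the 3 genes had been grouped by a shared direction. They run 5′ to 3′ on the gene's own strand, at chr11:102107833-102108082, chr6:88724162-88724411 and chr17:79355092-79355341. Capitals mark matches to TATAA, to the E-box CACGTG and to the GC box GGGCGG, each searched on both strands (TTATA and CCGCCC being the other strand of the first and the last).
Pyy: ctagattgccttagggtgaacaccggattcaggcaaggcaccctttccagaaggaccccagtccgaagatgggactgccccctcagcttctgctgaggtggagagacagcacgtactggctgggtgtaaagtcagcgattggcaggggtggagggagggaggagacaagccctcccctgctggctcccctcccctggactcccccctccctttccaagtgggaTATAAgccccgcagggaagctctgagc
Mgll: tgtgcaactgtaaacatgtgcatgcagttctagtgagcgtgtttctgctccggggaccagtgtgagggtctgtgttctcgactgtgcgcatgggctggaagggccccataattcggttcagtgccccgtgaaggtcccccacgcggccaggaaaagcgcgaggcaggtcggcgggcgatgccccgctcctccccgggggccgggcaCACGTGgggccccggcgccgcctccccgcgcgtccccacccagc
Cdc42ep3: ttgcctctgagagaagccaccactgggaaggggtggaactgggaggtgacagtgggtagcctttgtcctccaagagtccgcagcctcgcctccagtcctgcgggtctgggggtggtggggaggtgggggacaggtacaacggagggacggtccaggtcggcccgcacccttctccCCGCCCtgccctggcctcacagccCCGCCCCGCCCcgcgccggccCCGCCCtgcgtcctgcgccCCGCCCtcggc
None of these 3 motifs occurred in more than 1 of the windows. The Pyy window held 1 TATAA close to the gene's start and neither of the others. The Mgll window held 1 CACGTG, and the Cdc42ep3 window held 5 GC boxes, of which 2 share a base. Among 32851 promoters of the same length, 22.8% held TATAA or its reverse, 6.02% held CACGTG and 32.7% held a GC box. G and C made up 61.2% of the Pyy window, 68% of the Mgll window and 72.4% of the Cdc42ep3 window, against a median of 52.4% over all promoters. The number of CpG was 5, 23 and 18 in that order, against a median of 6. None of the 3 windows held TGANTCA (in 6.75% of promoters) or TTCNNNGAA (7.02%), letters associated with AP-1 and STAT factors. This says only that these letters are not in these windows.

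Levels are UMIs (counted molecules) of a gene per 10000 UMIs of a cell, as the mean over a mouse's cells. Libraries held 1736 to 4972 cells with a median of 2527 to 4744 UMIs, and 44 to 119 of a library's cell barcodes also occurred in another library. Of 20464 cells kept after filtering, 7467 fell in 24 keratinocyte-like clusters, named from keratinocyte markers: NO_AG 1 and NO_AG 2 gave 2238 and 1766 of them, AG 1 and AG 2 gave 997 and 2023, and the AG_CPI mice 175 and 268. Mouse AG 2 stood apart. Its keratinocytes had a median of 2319 UMIs against 3314.5 to 7081 elsewhere, a median of 6.37% mitochondrial UMIs against 3.37% to 5.26%, and the highest summed level of 11 measured T-cell markers (4.81 against 0.388 to 3.20). AG_CPI 1 stood apart in sex-linked RNA: 18.9% of its keratinocytes had a Ddx3y UMI and 1.71% a Xist UMI, while the other 5 mice had no Ddx3y UMI and Xist in 65.4% to 88.2% of these cells. The clusters that held most cells also differed: cluster 1 (Krt15, Col17a1) held 24.7% and 20.2% of the keratinocytes of the NO_AG mice, cluster 16 (Krt79, Defb6) 31.5% of AG 1 and 28.6% of AG_CPI 1, cluster 23 (Krt6a, Il24) 27.9% of AG 2, and cluster 3 (Cldn10, Krt28) 29.5% of AG_CPI 2. The part of these differences in the members' levels was examined only where values within clusters are given below.

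Pyy was the member with the widest range. Its mean level was 0.688 in NO_AG 1 and 0.573 in NO_AG 2, 0.0764 in AG 1 and 0.0164 in AG 2, and 0 in both AG_CPI mice. Both NO_AG mice lay above the other 4. The order of AG 2 and the AG_CPI mice is not resolved at this depth, since AG 2 lay under the level that 3 UMIs would give in either AG_CPI mouse. These levels rest on 902 and 814 UMIs in NO_AG, 59 and 7 in AG, and none in AG_CPI. In AG_CPI the small number of keratinocytes sets the limit: a count of 0 in 175 and 268 cells allows up to 1.71% and 1.12% of cells with a UMI when 3 cells are taken as the limit (the 95% Wilson limits are 2.15% and 1.41%), and 3 UMIs would have given 0.0388 and 0.0231 per 10000. The group means were 0.631 ± 0.0812 (SD, n = 2) in NO_AG and 0.0464 ± 0.0425 in AG, a 13.6-fold difference, and the NO_AG mean was at least 20.4-fold higher than in AG_CPI when 3 UMIs per mouse are taken as the floor.

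Few keratinocytes carried Pyy, and a small number of them carried most of it. In NO_AG, 5.63% (95% Wilson interval 4.75% to 6.66%) and 6.85% (5.76% to 8.13%) of keratinocytes had a Pyy UMI, against 2.41% (1.62% to 3.56%) in AG 1 and 0.346% (0.168% to 0.713%) in AG 2. These intervals cover counting error only. Thinned to 1500 UMIs per cell, the depth every cell reaches, the shares were 3.08%, 3.13%, 0.796% and 0.246%, so the order did not depend on depth. In T-like cells, which should lack the hormone, 2 of 608 cells of NO_AG 1 had a Pyy UMI (0.329%, at a median of 2394 UMIs against 5667 in its keratinocytes) and no T-like cell of the other 5 mice did. In AG 2 that was 0 of 819 T-like cells, which allows a share of up to 0.366%, so the 0.346% of its keratinocytes lay within what this background allows.

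The 25 keratinocytes of NO_AG 1 with at least 10 Pyy UMIs held 72.9% of that mouse's Pyy UMIs, and 23 such cells of NO_AG 2 held 75.6%. A single cell reached 145 UMIs in NO_AG 1 and 127 in NO_AG 2, or 16.1% and 15.6% of the total. In AG 1 the highest cell had 12 UMIs, and in AG 2 none of the 7 positive cells had more than 1. Without the 5 highest cells of each mouse the NO_AG means were 0.422 and 0.381, still above the full means of both AG mice. Both the number of positive cells and the number of molecules in the highest cells were thus lower in the AG mice.

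Mgll, the lipase, was spread over more cells. Its mean level was 0.691 and 0.708 for NO_AG, 0.181 and 0.154 for AG, and 0.111 and 0.0918 for AG_CPI. The 2 mice of a group lay close together and no 2 groups overlapped in this set of clusters. The separation depended on which cells were taken as keratinocytes. In all cells passing a gate on keratin genes Mgll was 1.12 and 1.01 for NO_AG, 0.380 and 0.822 for AG, and 0.108 and 1.67 for AG_CPI, so that AG_CPI 2 lay above both NO_AG mice. Over all epithelial clusters AG_CPI 2, at 1.38, again lay above NO_AG, at 1.22 and 0.956, while AG_CPI 1 was at 0.0993. Group means were 0.700 ± 0.0118 (SD, n = 2), 0.168 ± 0.0190 and 0.101 ± 0.0133, so the NO_AG mean was 4.17-fold that of AG and 6.91-fold that of AG_CPI. The AG_CPI levels rest on 6 and 15 UMIs. A Mgll UMI was found in 23.3% and 27.1% of NO_AG keratinocytes, in 9.53% and 4.79% of AG ones and in 2.86% and 4.85% of AG_CPI ones. Thinned to 1500 UMIs the shares were 8.78% and 9.11%, then 2.58% and 2.18%, then 1.59% and 1.35%. No cell had more than 16 Mgll UMIs, and the top 5 cells held 5.68% and 4.40% of the UMIs of the NO_AG mice.

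Cdc42ep3, the Borg protein, differed least in this set of clusters, but its order with Mgll depended on the choice of cells. With the keratin gate the fitted log2 difference from NO_AG was -0.74 in AG and -1.47 in AG_CPI, against -0.72 and -0.83 for Mgll. Over all epithelial clusters it was -0.61 and -1.34, against -1.22 and -1.05 for Mgll. In the named clusters the mean level of Cdc42ep3 was 0.383 and 0.355 for NO_AG, 0.197 and 0.299 for AG, and 0.198 and 0.0700 for AG_CPI. Both NO_AG mice lay above all 4 others, while AG and AG_CPI overlapped, with AG 1 and AG_CPI 1 nearly level. The group means were 0.369 ± 0.0195 (SD, n = 2), 0.248 ± 0.0720 and 0.134 ± 0.0906, which puts NO_AG 1.49-fold above AG and 2.75-fold above AG_CPI. The shares of cells with a UMI were 14.1% and 14.9%, 11.9% and 8.60%, and 6.29% and 2.99% in the same order of mice. At 1500 UMIs they were 5.01% and 4.67%, 2.85% and 4.36%, and 2.60% and 0.984%, with AG 2, whose keratinocytes were the shallowest, close to NO_AG. For each of the 3 members both AG and both AG_CPI mice lay below both NO_AG mice, as they did for 21% and 24.5% of all genes tested, and since this pattern chose the members nothing is read from it.

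**Figure D1:**
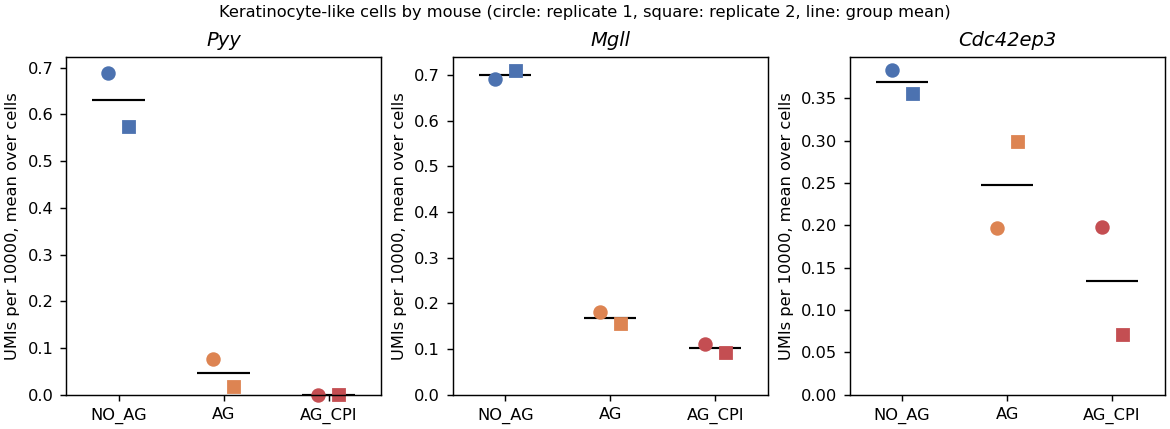
Mean UMIs per 10000 of Pyy, Mgll and Cdc42ep3 over the keratinocyte-like cells of each mouse, with 1 point per mouse and a line at the mean of the group. Both NO_AG mice lie above all 4 other mice for each gene. AG and AG_CPI overlap for Cdc42ep3, and both AG_CPI mice are at 0 for Pyy.

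In the limma fit over all 8148 genes, on log2 of the scaled mean plus 0.1, the AG difference from NO_AG was -2.30 (SE 0.25) for Pyy, -1.53 (0.17) for Mgll and -0.40 (0.30) for Cdc42ep3. The AG_CPI difference from NO_AG was -2.83, -1.94 and -1.01. Both comparisons share the NO_AG mice, and both chose the members. Without single mice Pyy ranged from -2.62 to -1.99 in AG and Mgll from -1.62 to -1.44, and Pyy fell under the filter on low values without either NO_AG mouse. The choice of cells moved Mgll more: its AG difference was -0.72 with the keratin gate, -1.22 over all epithelial clusters and -0.56 when clusters were named by their leading genes, and its AG_CPI difference -0.83, -1.05 and -0.71. Pyy stayed between -1.96 and -3.08 in AG under these 3 choices, and Cdc42ep3 between -0.36 and -0.74. The pseudocount shrinks the values: Pyy in AG was -1.03 with a pseudocount of 0.5 and -3.4 with 0.02.

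AG_CPI against AG did not enter the choice of the genes, though it uses the same antigen mice. Here 0 of 8148 genes (0%) passed by limma, with 554 at an unadjusted p under 0.05. The difference was -0.53 for Pyy (95% interval -1.11 to 0.05, limma adjusted p 0.751), -0.41 for Mgll (-0.82 to -0.01, adjusted p 0.729) and -0.60 for Cdc42ep3 (-1.32 to 0.11, adjusted p 0.767). Both AG_CPI mice lay below both AG mice for Mgll, as for 15.4% of all genes, while for Pyy the order of AG 2 and AG_CPI is not resolved. Mgll, however, differed by -0.11 with the keratin gate and by 0.17 over all epithelial clusters. For Mgll and Cdc42ep3 the intervals reach from little or no difference to a further fall of 0.82 (-0.82, Mgll) and 1.32 (-1.32, Cdc42ep3) log2 units. Both AG_CPI mice had 0 Pyy UMIs and so sat at the lowest value that log2 with 0.1 added allows. The Pyy interval therefore does not limit how far Pyy fell.

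Keratinocytes were then split by state. Cells with a Krt1 plus Krt10 level of at least 50 per 10000 were taken as suprabasal, and they numbered 239 and 270 for NO_AG, 176 and 32 for AG, and 44 and 69 for AG_CPI, or 1.58% of the keratinocytes of AG 2 and 10.7% to 25.7% of those of the other mice. Of 11 tested suprabasal genes 8 were higher in these cells (median log2 difference 2.40 against -0.05 over all genes). That list holds Krt1 and Krt10, which made the split, so their direction was fixed in advance. Genes outside the definition differed too. Krtdap, a differentiation-associated secreted protein, was higher (3.28, limma adjusted p 0.000678). Of 8 basal genes 4 were lower, such as Krt15 (-1.95, adjusted p 0.0238). All 6 cycling genes were lower, Mki67 among them (-1.39, adjusted p 0.0373). Over all genes, 1332 of 8434 (15.8%) differed between the states. That count was 200 without NO_AG 1, 345 without NO_AG 2, 501 without AG 1 and 211 without AG 2. The tests compare the state difference over the 6 mice, not over cells.

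Pyy was higher in suprabasal than in other keratinocytes in the mice that had much of it. Suprabasal levels were 2.34 and 0.816 for NO_AG, 0.222 and 0 for AG, and 0 and 0 for AG_CPI. In the other keratinocytes they were 0.490 and 0.530, then 0.0453 and 0.0167, then 0 and 0. Suprabasal cells were thus above the rest in both NO_AG mice and in AG 1. The direction in AG 2 is not resolved, since its 32 suprabasal cells held no Pyy UMI and 3 UMIs would have given 0.195, and AG_CPI was at 0 in both states. The mean log2 difference was 0.66 (SE 0.25, 95% interval 0.10 to 1.23), which did not pass (limma adjusted p 0.103). It passed with the replicate number as a block (adjusted p 0.0413). Single cells weighed heavily, with 1 cell holding 36.0% of the suprabasal Pyy UMIs in NO_AG 1 and 33.9% in NO_AG 2. Without the 5 highest cells of each state the suprabasal level was 0.862 against 0.270 in NO_AG 1, but 0.230 against 0.326 in NO_AG 2, so in NO_AG 2 the direction rested on those cells.

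Mgll went the other way, with a lower value in suprabasal cells in 6 of 6 mice, as for 12.8% of all genes, though only both NO_AG mice and AG 1 had enough UMIs to resolve it. Suprabasal levels were 0.132 and 0.398 for NO_AG, 0.0991 and 0 for AG, and 0.0903 and 0.0724 for AG_CPI, and in the other keratinocytes 0.758 and 0.764, 0.199 and 0.157, and 0.117 and 0.0986. The gap in level was widest in the NO_AG mice. In AG 2 and both AG_CPI mice the suprabasal level lay under what 3 UMIs would give (0.195, 0.160 and 0.103), on 0, 1 and 3 Mgll UMIs, so the direction there is not resolved. The mean log2 difference was -0.73 (SE 0.21, 95% interval -1.21 to -0.25) and narrowly missed the threshold (limma adjusted p 0.0508). It passed under 6 of the alternatives tried, among them the deposited scaling without TMM (-0.84, adjusted p 0.0273), and was only -0.15 (adjusted p 0.53) when the state threshold was 20 in place of 50.

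Cdc42ep3 was lower in suprabasal cells in 4 of 6 mice. Its suprabasal levels were 0.0625 and 0.116 for NO_AG, 0.0177 and 0.314 for AG, and 0.0884 and 0.121 for AG_CPI, against 0.421 and 0.399, 0.235 and 0.298, and 0.235 and 0.0525 in the other keratinocytes. AG 2 and AG_CPI 2 were the exceptions, on 3 and 6 suprabasal UMIs, and AG_CPI 1 had 1. The mean log2 difference was -0.67 (SE 0.27, 95% interval -1.30 to -0.03, limma adjusted p 0.134) and did not pass, though with the replicate block the adjusted p was 0.0434. In suprabasal cells the groups overlapped, with 24 Cdc42ep3 UMIs in NO_AG, 6 in AG and 7 in AG_CPI.

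**Figure D2:**
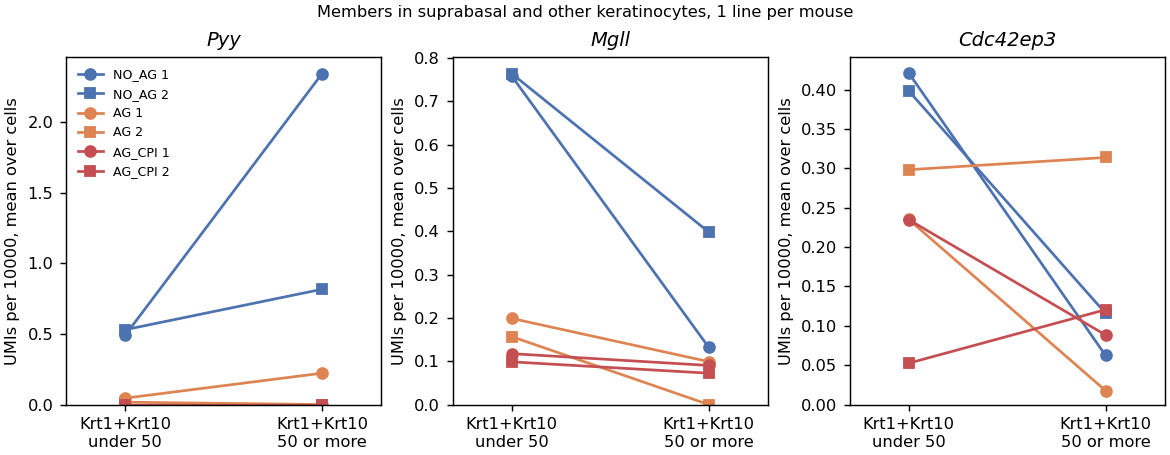
Mean UMIs per 10000 in keratinocytes with a Krt1 plus Krt10 level under 50 and of 50 or more, with 1 line per mouse. The Mgll lines fall in all 6 mice, though AG 2 and AG_CPI rest on 0 to 3 suprabasal UMIs, the Pyy lines rise in both NO_AG mice and AG 1, and the Cdc42ep3 lines fall in 4 mice and rise in AG 2 and AG_CPI 2.

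Whether the state difference itself changed between groups was tested as an interaction, and no gene passed in any of the 3 comparisons by limma (0%, with 168, 576 and 786 genes at an unadjusted p under 0.05 for AG against NO_AG, AG_CPI against NO_AG and AG_CPI against AG). For AG against NO_AG the change was -0.94 for Pyy (95% interval -2.33 to 0.44), 0.28 for Mgll (-0.90 to 1.47) and 0.69 for Cdc42ep3 (-0.86 to 2.24), each with a limma adjusted p of 0.999. For AG_CPI against NO_AG it was -1.47 for Pyy (adjusted p 0.699), 1.06 for Mgll (adjusted p 0.752) and 1.24 for Cdc42ep3 (adjusted p 0.762). For AG_CPI against AG it was -0.52, 0.78 and 0.55 (adjusted p 0.801, 0.657 and 0.817). These intervals are several log2 units wide, and some signs turned when single mice were left out: those of Mgll and Cdc42ep3 for AG against NO_AG, and those of Pyy and Cdc42ep3 for AG_CPI against AG.

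Along the Krt1 plus Krt10 level, Pyy in NO_AG rose from cells with none of these keratins (0.351 and 0.279) to cells at 20 to 50 (2.39 and 1.97), just under the state threshold. Just above it, at 50 to 100, the mice parted, with 7.26 in NO_AG 1 and 0.241 in NO_AG 2. Of the 41 cells of NO_AG 1 in that bin 7 had Pyy, and 1 of them held 145 of the 213 UMIs. At 200 and more the levels were 1.11 and 0.563. Mgll in NO_AG was 0.810 and 0.646 without these keratins, highest at 20 to 50 in NO_AG 2 (0.758 and 1.17), and 0.0952 and 0.325 at 200 and more. Cdc42ep3 in NO_AG was 0.477 and 0.445 without these keratins and lowest at 200 and more (0.0489 and 0.0194), though in NO_AG 2 it was higher at 50 to 100 (0.270) than at 20 to 50 (0.194). In AG and AG_CPI the bins above the threshold mostly held under 50 cells.

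**Figure D3:**
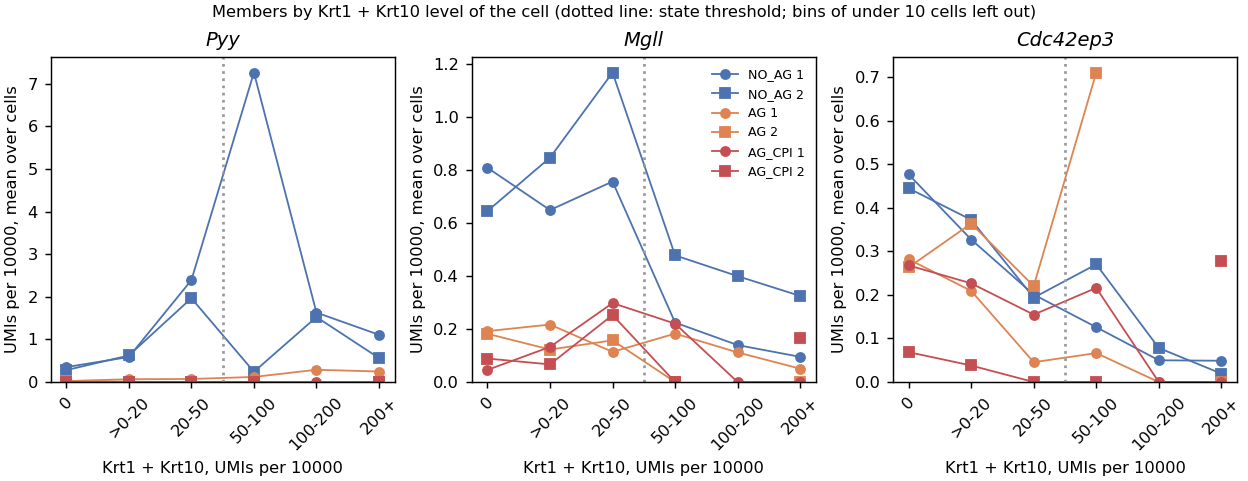
Mean UMIs per 10000 of each gene in bins of the cell's Krt1 plus Krt10 level (UMIs per 10000), with 1 line per mouse, a dotted line at the threshold of 50, and bins of under 10 cells left out. In NO_AG the Pyy level peaks around the threshold, where 1 cell of NO_AG 1 held 145 of 213 UMIs, while Cdc42ep3 is lowest in the last bin.

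The group difference in Pyy was present within both states. In cells under the threshold the NO_AG mean was 16.5-fold that of AG and at least 12.6-fold that of AG_CPI. In suprabasal cells it was at least 12.0-fold that of AG_CPI. For Mgll the NO_AG mean under the threshold was 4.28-fold that of AG and 7.05-fold that of AG_CPI, and for Cdc42ep3 it was 1.54-fold and 2.85-fold. In suprabasal cells the Cdc42ep3 means ran the other way, at 0.0892 for NO_AG, 0.166 for AG and 0.104 for AG_CPI, on the few UMIs given above. Of the 7467 keratinocytes 6637 were under the threshold, but cell number alone does not set the values over all keratinocytes. Suprabasal cells held 403 of 902 and 186 of 814 Pyy UMIs in NO_AG, and 36 of 59 and 0 of 7 in AG. For Mgll they held 22 of 933 and 60 of 840 UMIs in NO_AG. No fold is given for Mgll in suprabasal cells, where the AG and AG_CPI means, like that of Cdc42ep3 in AG_CPI, lay under the level that 3 UMIs would give.

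Clusters showed where in the epithelium each member sat. They were built from all genes, members included, so these are descriptions. Pyy was highest in cluster 11, led by Krt10, Krt77 and Krt1, at 2.91 and 1.96 for NO_AG, 0.249 and 0 for AG, and 0 and 0 for AG_CPI. In cluster 1, led by basal Krt15 and Col17a1 among others and almost absent outside NO_AG and AG 1, it was 1.16 and 0.866 in NO_AG and 0.110 in AG 1. In cluster 15 (Fst, Sostdc1) the NO_AG mice differed, at 0.145 and 0.947, and the others were at 0.0104 or 0. In cycling cluster 22 (Cdc20, Cenpf) it was 0.517 and 0.192 in NO_AG, 0.0233 and 0 in AG and 0 in AG_CPI 2. In cluster 16 the gap was small for 1 mouse, with 0.104 and 0.214 in NO_AG, 0.0872 in AG 1 and 0 in the others, and a Pyy UMI in 1.59% of the cells of AG 1 against 0.685% in NO_AG 1. In clusters 3, 5 and 31 at least 1 NO_AG mouse had no Pyy UMI.

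Mgll did not follow that pattern in every cluster. In cluster 1 it was 0.655 and 0.811 in NO_AG and 1.05 in the 52 cells of AG 1. In cluster 5 (Akr1c18), which held 332 and 168 cells of the NO_AG mice but only 22 and 30 of the AG mice, it was 2.58 and 1.63 in NO_AG and 0.581 and 1.17 in AG. In cycling cluster 22 it was 0.649 and 0.686 in NO_AG, 0.254 and 0.174 in AG and 0.111 in AG_CPI 2. In cluster 11 it was 0.160 and 0.384 in NO_AG and 0.0822 and 0 in AG, and in cluster 15 it was 0.137 and 0.119 against 0.0470 and 0.0450. In cluster 16 the AG mice, at 0.108 and 0.200, overlapped NO_AG, at 0.304 and 0.167. In cluster 3 they overlapped too, with 0.0577 and 0.126 in AG and 0.0811 and 0.191 in NO_AG. Of the 7 keratinocyte-like clusters with at least 10 cells of both NO_AG and both AG mice, both AG mice thus lay below both NO_AG mice in clusters 5, 11, 15, 22 and 31, but not in clusters 3 and 16.

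Cdc42ep3 was highest among keratinocyte-like clusters of over 100 cells in cluster 15, at 1.23 and 1.36 for NO_AG, 0.428 and 0.269 for AG, and 0.130 and 0.146 for AG_CPI, with no overlap between the 3 groups. In cluster 16 it was 0.292 and 0.294, 0.119 and 0.146, and 0.0330 and 0.0230. In cluster 1 it was level, at 0.126 and 0.121 in NO_AG and 0.131 in AG 1. In cluster 3 both AG mice, at 0.290 and 0.197, lay above both NO_AG mice, at 0.153 and 0.151, while AG_CPI 2 was at 0.0461. Of the same 7 clusters, both AG mice lay below both NO_AG mice for Cdc42ep3 in clusters 5, 11, 15 and 16, overlapped them in clusters 22 and 31, and lay above them in cluster 3. In cluster 11 both AG_CPI mice, at 0.126 and 0.260 on 1 and 6 UMIs, lay above both NO_AG mice, at 0.0688 and 0.0513. Outside the named clusters it was higher still in cluster 2, 1392 epithelial cells led by Lgr5, Lhx2 and Tagln, where the levels were 2.56 and 2.10 for NO_AG, 1.84 and 1.57 for AG, and 0.161 and 0.845 for AG_CPI. There the AG_CPI difference from NO_AG was -2.11 (limma adjusted p 0.23, 20 and 70 AG_CPI cells) and did not pass.

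**Figure D4:**
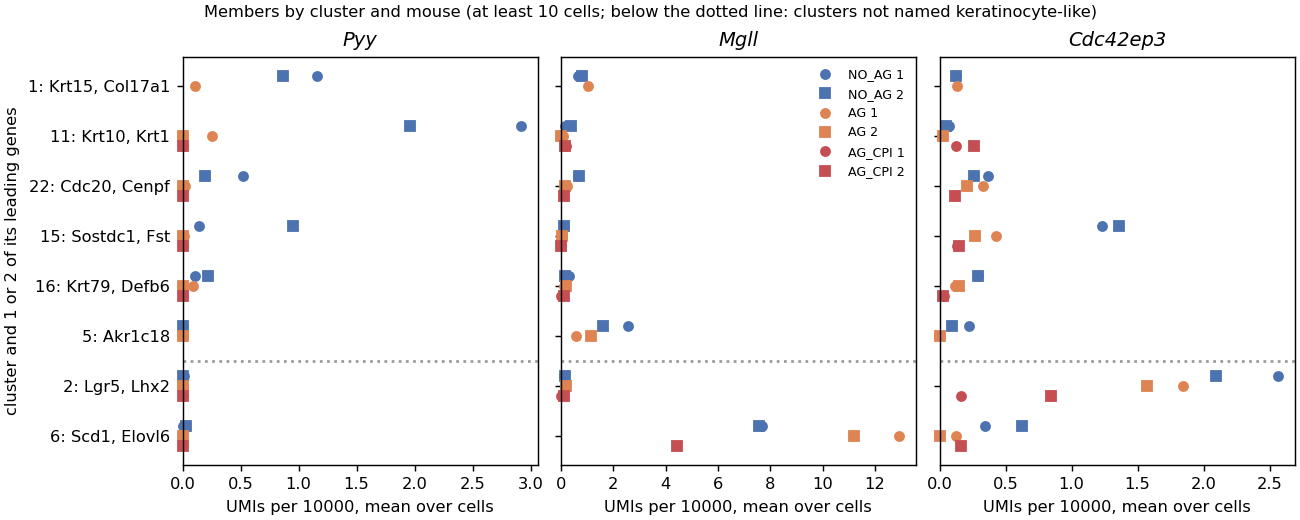
Mean UMIs per 10000 of each gene in 8 clusters, named by number and leading genes, with 1 point per mouse that has at least 10 cells there. The clusters below the dotted line were not named keratinocyte-like; among these 8, Pyy is highest in cluster 11, Mgll in cluster 6, and Cdc42ep3 in cluster 2.

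Clusters 11, 15 and 16 held cells of all 6 mice and were averaged with equal weight, an alternative added after the data were seen. Pyy was then 1.05 and 1.04 for NO_AG, 0.116 and 0 for AG, and 0 and 0 for AG_CPI. Mgll was 0.200 and 0.223, 0.0792 and 0.0816, and 0.0674 and 0.0924. Cdc42ep3 was 0.531 and 0.569, 0.189 and 0.146, and 0.0963 and 0.143. NO_AG lay above the other mice for each gene, but the sizes shifted. The fitted AG difference from NO_AG became -2.95 for Pyy, -0.77 for Mgll and -1.26 for Cdc42ep3, and the AG_CPI difference -3.51, -0.79 and -1.57. This average also leaves out clusters 1 and 5, where Mgll was higher, so equal weights and the choice of clusters cannot be told apart in it.

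Of the tested genes around each member, taken from lists chosen with earlier results known, none was called against NO_AG. Of 14 listed genes of the peptide YY axis (related peptides, receptors, processing enzymes), 11 were measured and only 2, the processing enzymes Cpe and Pam, were abundant enough to test. Neither was called in AG or AG_CPI. Ppy, the related pancreatic polypeptide, had 0 UMIs, and the receptor Npy1r had 20 in all keratinocytes. Of 15 tested genes of monoacylglycerol and endocannabinoid handling, 0 were called in either comparison with NO_AG (0.331% and 0.245% of all genes were called), with medians of -0.00 and -0.13 against -0.01 and 0.00 over all genes. Of the 15, 7 had values above 0 in each comparison. Plin2, Plin3 and Dgat2 lay below both NO_AG mice in all 4 antigen mice, and Fabp5, Ptgs1 and Naaa lay above both, so the list had no common direction. Plin2, which coats lipid droplets, was at 1.14 and 1.22 for NO_AG, 0.671 and 0.795 for AG, and 0.494 and 0.741 for AG_CPI (-0.57 and -0.80, limma adjusted p 0.55 and 0.167). Fabp5, a fatty acid carrier, was at 5.27 and 12.6, 14.5 and 49.5, and 45.6 and 49.0 (1.76 and 2.58, limma adjusted p 0.53 and 0.145). Of 14 tested Cdc42 effector genes 0 were called, with medians of -0.02 and -0.02, and Cdc42 itself differed by 0.04 and 0.15. No septin was analysed here. At an unadjusted p under 0.05, 556 and 1080 of all genes passed in these comparisons.

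Between the states, 6 of 16 tested lipid genes were higher in suprabasal cells and 1 was lower, where 15.8% of all genes differed (list median 0.37 against -0.05). Fabp5 was higher by 2.14 (limma adjusted p 0.000678), Ptgs1, a cyclooxygenase, by 2.00 (adjusted p 0.00135) and Dgat2, which makes triglycerides, by 1.82 (adjusted p 0.000678). Plin2 was lower by 1.33 on the log2 scale (-1.33, adjusted p 0.014), the same direction as Mgll. Of 14 Cdc42 effector genes, Iqgap1 (0.54, adjusted p 0.0354) and Baiap2 (0.50, adjusted p 0.0361) were higher in suprabasal cells and none was lower.

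Stress genes were higher in sum in all 4 antigen mice, with AG and AG_CPI overlapping, but none passed the test. The summed level of 7 stress genes, such as Krt6b, Krt16 and S100a8, was 0.422 and 0.496 for NO_AG, 2.32 and 22.7 for AG, and 20.5 and 11.2 for AG_CPI, with a median log2 difference of 2.05 in AG and 3.61 in AG_CPI over the 6 tested and 0 called by limma. Their part in the members' levels was not tested.

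By Pearson correlation over 12 profiles, the 2 states in each mouse, the genes most like Pyy among 8433 were Il20ra (0.961), Ascl2 (0.956) and Rsrp1 (0.955). Those most like Mgll were Mob3b (0.915), Clmp (0.915) and Ces1d (0.914), and those most like Cdc42ep3 were S100a13 (0.856), Tchh (0.850) and Cyp1b1 (0.849). The profiles come in pairs from 1 mouse and share its depth, so these are descriptions. Between the members the correlation was 0.57 for Pyy and Mgll, 0.36 for Mgll and Cdc42ep3, and -0.13 for Pyy and Cdc42ep3. Pyy and Mgll were found together in 26 and 40 NO_AG keratinocytes and in 4 and 2 AG ones. For Mgll and Cdc42ep3 these numbers were 52 and 72, and 8 and 10. For Pyy and Cdc42ep3 they were 9 and 17, and 1 and 0. No number expected for independent genes was worked out, so whether members share cells more or less often than that was not tested.

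In cluster 26, 92 cells outside the keratinocyte-like set that could not be named, Pyy was the leading gene, ahead of Krt15. All but 1 of its cells came from NO_AG, and the level was 1.91 in NO_AG 1 (23 UMIs in 43 cells) and 0.0885 in NO_AG 2 (1 UMI in 48 cells). In immune classes Pyy was nearly absent. The T-like cells of all 6 mice together held 2 Pyy UMIs, the dendritic/Langerhans-like cells of the 4 NO_AG and AG mice 3, and the monocyte/macrophage-like cells none. Mgll was measured in most classes. In sebocyte-like cells, the lipid-making cells of the sebaceous gland, it was 8.77 in the 18 cells of NO_AG 2 and 12.4 in the 88 cells of AG 2, with a UMI in every one of them, and the other mice gave 5 cells or fewer. Unnamed cluster 50, 35 cells of AG 2 alone, was at 7.56. In melanocyte-like cells it was 11.1 and 5.002 in NO_AG and 9.72 and 2.35 in AG, which overlapped. In cluster 6, led by the lipid-synthesis genes Scd1 and Elovl6, it was 7.69 and 7.56 in NO_AG, 12.9 and 11.2 in AG (16 and 27 cells), and 4.45 in AG_CPI 2. Mgll in cluster 6 was thus higher in both AG mice, by 0.74 log2 units (SE 0.24), which did not pass (limma adjusted p 0.365; 0 of 4640 genes were called there, 521 at an unadjusted p under 0.05). In dendritic/Langerhans-like cells it was 0.688 and 0.511 in NO_AG and 0.393 and 0.102 in AG. That difference did not pass (-1.02, limma adjusted p 0.293, with 1.34% of all genes called). With AG 2 as the only AG mouse it was -1.65.

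In T-like cells Mgll was 0.277 and 0.216 for NO_AG, 0.0899 and 0.0708 for AG, and 0.0132 and 0.0612 for AG_CPI. No AG or AG_CPI mouse reached either NO_AG mouse. Mgll was lower by 0.76 log2 units in AG (-0.76, limma adjusted p 0.0245) and by 1.18 in AG_CPI (-1.18, adjusted p 0.00136). Of all genes, 8.88% and 12.7% were called lower. Only the NO_AG mice reached the mean of 0.1 that the filter requires, so Mgll entered this test through the group where it was high. A lower call was thus favoured in advance, and nothing is read from it. Without AG 2 the first call was lost (-0.70, adjusted p 0.0685), and without either NO_AG mouse Mgll fell under the filter on low values. The makeup of the T-like class changed as well: cluster 17 held 80.8% and 71.5% of it for NO_AG, 28.4% and 13.2% for AG, and 0.537% and 1.45% for AG_CPI. Within cluster 17 Mgll was 0.303 and 0.263 in NO_AG and 0.208 and 0.099 in AG. In NO_AG T-like cells 77 Mgll UMIs stood against 2 of Pyy, where the keratinocytes of the same mice had 1773 and 1716, so the 2 genes were not in the same ratio in both classes.

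Cdc42ep3 in T-like cells was 0.619 and 0.512 for NO_AG, 0.732 and 0.455 for AG, and 0.727 and 0.710 for AG_CPI. Both AG_CPI mice lay above both NO_AG mice, and AG overlapped both groups. The AG_CPI difference was 0.59 (limma adjusted p 0.0445, where 14.5% of all genes were called higher), but it was 0.30 with the deposited scaling (adjusted p 0.271) and was not called without any single NO_AG or AG_CPI mouse (adjusted p 0.12 to 0.311). The direction in T-like cells was opposite to that in keratinocytes, a contrast that was not itself tested. In melanocyte-like cells Cdc42ep3 was 0.770 and 0.767 in NO_AG and 0.335 and 0.139 in AG. That difference did not pass (-1.34, limma adjusted p 0.961), and with AG 2 as the only AG mouse it was -1.71.

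**Figure D5:**
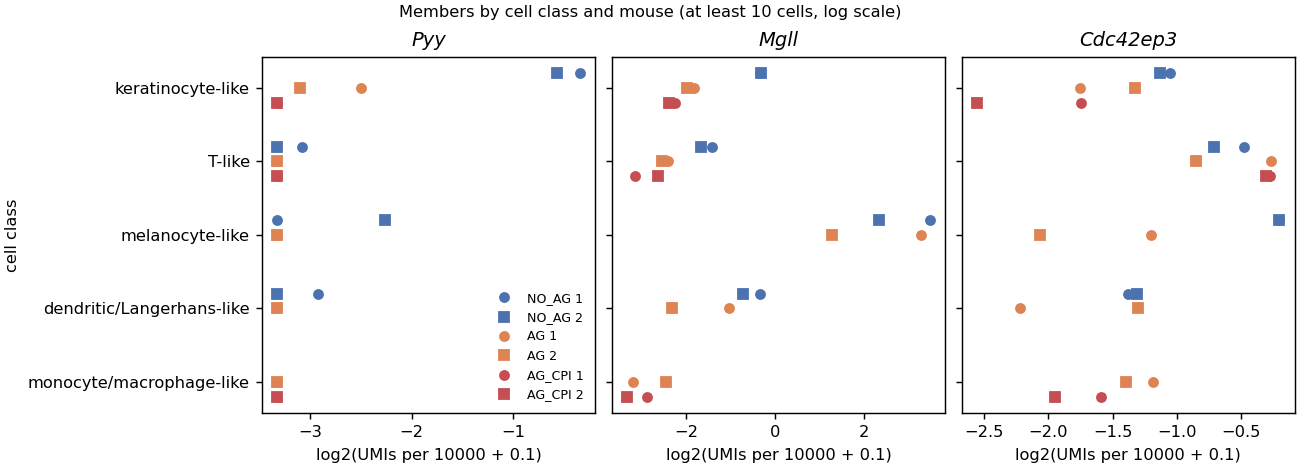
Log2 of the mean UMIs per 10000 plus 0.1 of each gene in 5 cell classes, with 1 point per mouse with at least 10 cells of the class. Pyy stands above the lowest possible value mainly in keratinocyte-like cells, Mgll is highest in melanocyte-like cells among these 5 classes, and Cdc42ep3 in AG_CPI lies low in keratinocyte-like but high in T-like cells.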

How the data were processed

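Libraries were made from single-cell suspensions with a 10x Genomics 5' kit, per the labels' protocols, and processed with Cell Ranger 3.1 on mm10, per the submitters' processing notes. The authors deposited 1 table per mouse of log10 values: log10 of 1 plus the UMIs per 10000 UMIs of the cell. No header states this unit. It was read from the values, which return whole UMIs in 100% of cases if the base is 10, while base e gives 66.5% to 68.9%. The 16158 deposited genes hold 95.4% to 96.7% of each cell library's UMIs, and cells had 1501 to 14995 UMIs. 8 symbols name more than 1 column.

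Of 21178 cells, 51 with under 200 genes or over 20% mitochondrial UMIs and 663 doublets scored by Scrublet (3.14%) were removed. The rest were clustered in scanpy 1.11.5 (Python 3.11.15) by Leiden at resolution 1 on 15 neighbours in 30 principal components of 2000 variable genes, without integration. Clusters were named from marker lists. The scoring was settled after the leading genes, the cell numbers and the members' cluster means had been seen: a naming by markers among the 10 leading genes was tried first and dropped because it left most epithelial clusters unnamed, and clusters 4, 19 and 21 were set to unnamed by hand. A keratinocyte was called suprabasal at a Krt1 plus Krt10 level of at least 50, and 3.84% to 20% of a mouse's keratinocytes lay between 25 and 100.

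Linear values were averaged over the cells of a mouse, brought to a common scale by TMM (trimmed mean of M-values), and tested as log2 of the value plus 0.1 with limma 3.58.1 (trend, R 4.3.3), for genes with at least 10 UMIs and a mean of 0.1 in at least 2 profiles, with Benjamini-Hochberg adjustment over all genes. Fold changes on this scale understate those of low genes. The state test used each mouse's difference between the 2 states. Classes needed 10 cells per mouse. Count models had been planned for raw counts. The deposited values were on a log10 scale and limma was used, although whole UMIs could be recovered from them. The script was tested on simulated data. Nothing in the labels beyond the replicate numbers says how the mice were kept, so p-values measure the spread between these 2 mice per group. Fewer positive cells and less RNA per cell cannot be told apart in a mean over cells.

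The members and gene lists were chosen with earlier results of these data known. The named genes were the members, the called genes of the fixed lists, and per member the 3 genes with the highest correlation; other genes named were chosen after their values were seen. Alternatives were the pseudocount, the filter, the scaling, a keratin gate, doublets, a stricter cell filter, a depth window, the state threshold, the replicate block and leaving out each mouse, and 3 other choices of keratinocyte clusters added after the data were seen.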

Additional observations from a re-analysis of the deposited data

Results flagged for a closer look

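Mgll differed in opposite directions in 2 cell sets under the same contrast. For AG against NO_AG both AG mice were higher in cluster 6, led by Scd1 and Elovl6 (log2 difference 0.74), and both were lower in keratinocyte-like cells (-1.53). The difference between these values was not tested, and cluster 6 held 16 and 27 cells of the AG mice.

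Cdc42ep3 did so for AG_CPI against NO_AG. Both AG_CPI mice were higher in T-like cells (0.59) and both were lower in keratinocyte-like cells (-1.01). This difference was not tested either, and the clusters that made up the T-like class differed between the groups. Without TMM scaling the T-like means, 0.565 in NO_AG and 0.718 in AG_CPI, were 1.27-fold apart. The T-like call was lost with the deposited scaling and without single mice, as given above.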

How the results depend on the processing

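Depth limits Pyy in AG_CPI, where keratinocytes were few, and each group rests on 2 mice. Unless a value says otherwise, the cause of a change was not tested.

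For AG against NO_AG, where 27 genes were called, the count was 5 with no filter on low values, 57 with the replicate block, 43 when clusters were named by their leading genes and 43 with equal weights over shared clusters. Pyy, at -2.30, was -1.03 and -3.4 at pseudocounts of 0.5 and 0.02, -1.96 over all epithelial clusters, -3.08 under naming by leading genes and -2.95 with equal weights. Mgll, at -1.53, was -0.82 and -1.89 at these pseudocounts, -0.72 with the keratin gate, -1.66 in cells of 2000 to 8000 UMIs, -1.22 over all epithelial clusters, -0.56 under naming by leading genes and -0.77 with equal weights. Cdc42ep3 was -1.26 with equal weights.

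For AG_CPI against NO_AG, with 20 genes called, the count was 31 at a pseudocount of 0.02, 0 with no filter, 76 with doublets kept, 7 in the depth window, 116 with the replicate block, 12 over all epithelial clusters and 110 with equal weights. Pyy was -1.15 and -4.98 at the pseudocounts, -2.43 over all epithelial clusters, -3.64 under naming by leading genes and -3.51 with equal weights. Mgll was -0.97 and -2.52, -0.83 with the gate, -1.05, -0.71 and -0.79 in the same order. Cdc42ep3 was -0.44 and -1.41 at the pseudocounts, -1.47 with the gate and -1.57 with equal weights. For AG_CPI against AG, 4 genes were called with doublets kept, and Mgll was 0.17 over all epithelial clusters, where cluster 6 is included.

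Between the states, 1332 genes became 773 at a pseudocount of 0.02, 587 with no filter, 435 in the depth window and 202 under naming by leading genes. Pyy passed with the replicate block (0.66). Mgll passed at a pseudocount of 0.5 (-0.32), with the deposited scaling (-0.84), the gate (-1.9), doublets kept (-0.81), the stricter cell filter (-0.72) and all epithelial clusters (-1.19). Cdc42ep3 passed with the gate (-1.27), the stricter filter (-0.86), the block (-0.67) and all epithelial clusters (-1.24).

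The change of the state difference for Mgll turned to -0.45 (pseudocount 0.02), -0.5 (gate) and -0.81 (naming by leading genes) in AG, to -0.1 (gate) and -1.09 (naming) in AG_CPI, and to -0.27 (naming) for AG_CPI against AG. The stricter filter gave 1 called gene for AG_CPI against NO_AG. Within states, Mgll for AG_CPI against AG turned to -0.09 (naming) and -0.11 (without AG 2) in suprabasal cells and to 0.03 (gate), 0.19 (all epithelial clusters) and 0.18 (naming) in the rest. In other classes, leaving out 1 mouse gave -0.01 (without AG 1) to 0.55 for Cdc42ep3 in T-like cells, -1.42 to 0.42 (without AG 2) for Mgll in melanocyte-like cells, and -0.8 to 0.2 (without AG 1) for Cdc42ep3 in dendritic/Langerhans-like cells, for AG against NO_AG.

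For AG against NO_AG, leaving out each mouse in turn gave 7 (without AG 2) to 64 (without AG 1) called genes, and Pyy -2.62 to -1.99, Mgll -1.62 to -1.44, Cdc42ep3 -0.6 to -0.2. For AG_CPI against NO_AG, leaving out each mouse in turn gave 1 (without AG_CPI 1) to 62 (without AG 2) called genes, and Pyy -2.85 to -2.82, Mgll -2.05 to -1.85, Cdc42ep3 -1.46 to -0.57. For AG_CPI against AG, leaving out each mouse in turn gave 0 (without NO_AG 1) to 4 (without AG_CPI 2) called genes, and Pyy -0.84 to -0.22, Mgll -0.51 to -0.32, Cdc42ep3 -1.05 to -0.17. Between the states it gave 200 to 1891 called genes, and Pyy 0.42 to 0.91, Mgll -0.91 to -0.53, Cdc42ep3 -0.94 to -0.39. For the change of the state difference in AG against NO_AG it gave 0 called genes, and Pyy -1.68 to -0.2, Mgll -0.28 to 0.87, Cdc42ep3 -0.14 to 1.52. For the change of the state difference in AG_CPI against NO_AG it gave 0 called genes, and Pyy -2.21 to -0.73, Mgll 0.49 to 1.64, Cdc42ep3 0.52 to 1.97. For the change of the state difference in AG_CPI against AG it gave 0 called genes, and Pyy -1.26 to 0.21, Mgll 0.37 to 1.2, Cdc42ep3 -0.27 to 1.38. Single mice turned this change for Mgll in AG to -0.28 (without NO_AG 1) and -0.14 (without AG 1), and for Cdc42ep3 to -0.14 (without AG 2), and for AG_CPI against AG turned Pyy to 0.21 (without AG 1) and Cdc42ep3 to -0.27 and -0.18 (without AG 1 and AG_CPI 2). Left with 1 mouse, a group is assumed to vary like the others. The narrow Pyy range for AG_CPI against NO_AG does not show stability. Both AG_CPI mice were at 0, and without either NO_AG mouse Pyy fell under the filter on low values.

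Replicate numbers paired mice only weakly: deviations of same-numbered mice correlated at 0.228, 0.237 and 0.136, from 2 numbers, so the mice share a number and no more is known. The replicate block changed the call on Pyy and Cdc42ep3 between the states and no other call on a member.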
